A study of Arabidopsis thaliana with 24 samples.

Results

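PUB19 (AT1G60190) is the Arabidopsis gene for a plant U-box protein, a class of E3 ubiquitin ligases. It was measured by 1 probe set, 264217_at, out of 22746 probe sets that were not controls. The gene was chosen by its signal in shoots, which was among those that differed most between shoots at 3 h and shoots at 0.5 h on these same arrays. Every PUB19 value that rests on those shoot arrays is therefore given as a description, without a test. Tests of other genes below do use those arrays. The root arrays, and the shoot arrays at 1, 6, 12 and 24 h, had no part in that choice, and comparisons of PUB19 among them were tested. Each test took its spread from all 24 arrays, those of shoots at 0.5 h and 3 h among them.

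The plants were Arabidopsis thaliana of the accession Col-0, grown on rafts over liquid Murashige and Skoog medium. On day 16, 3 h after the lights came on, mannitol was stirred into the medium to 300 mM. Shoots and roots were taken after 0.5, 1, 3, 6, 12 and 24 h, with 2 arrays for each of the 12 groups of tissue and time. All 24 samples came from plants in mannitol whose rafts had been lifted out and put back; untreated plants are not analysed here. The 24 h and 0.5 h samples fall at nearly the same time of day. Between other times, a change with time in mannitol and a change with the time of day cannot be told apart. Between all times, 24 h and 0.5 h included, time in mannitol cannot be told apart from time since the handling or from plant age. The labels do not state whether the 2 samples of a group came from separate cultures, so each p-value reflects the spread of these samples alone, and that spread may be technical.

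A U-box is a fold, related to the RING finger, that holds a ubiquitin-charged E2 enzyme close to the protein to be tagged, and tagged proteins can be degraded by the proteasome. PUB19 carries armadillo repeats beside its U-box, as do PUB18, PUB22 and PUB23, and these genes are known as negative regulators in drought responses. Published work places PUB18 and PUB19 in abscisic acid signalling, in which this hormone, made when water is short, closes stomata and switches on dehydration genes. Mannitol in the medium lowers the water potential around the roots, and shoots meet that change through the roots.

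The tissue labels were set against marker genes. The summed signal of 6 green tissue markers lay between 12362 and 29126 on the shoot arrays and between 336 and 1016 on the root arrays. The summed signal of 2 root markers, PYK10 and EXPA7, lay between 216 and 1042 in shoots and between 2738 and 3964 in roots, nearly all of it PYK10, and no marker of either list was at 0 in any group. EXPA7, from root hairs, did not separate the tissues at every time: it was called higher in roots at 0.5, 1 and 24 h and not at 3, 6 or 12 h. Signals are the authors' linear array units, and the median probe set of an array lay between 31.4 and 48.3. Replicate arrays correlated at r = 0.979 to 0.985 on the log2 scale over all probe sets.

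In shoots the PUB19 signal went from near the floor of the arrays to its highest level between 0.5 h and 3 h. At 0.5 h it was 19.8 on replicate 1 and 25.4 on replicate 2, close to the 40th percentile of those arrays (23.3 and 24.6). At 1 h it was 258 and 193, and at 3 h 1516 and 1344. The arrays of these 3 times did not overlap, and the 3 h arrays were the highest of all 24.

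The later shoot arrays stayed far above the first ones. The signal was 1111 and 801 at 6 h, 786 and 645 at 12 h, and 856 and 616 at 24 h. All of these were below both 3 h arrays and above both 1 h arrays, while the 12 h and 24 h arrays overlapped each other. The shoot means in order of time were 22.6 ± 3.97, 226 ± 45.9, 1430.2 ± 122, 956 ± 219, 716 ± 100.4 and 736 ± 169.9 (SD, n = 2 each).

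In roots the signal was already high on the first arrays. At 0.5 h it was 541 and 492, at 1 h 649 and 917, and at 3 h 414 and 319. It was 189.7 and 247 at 6 h, 148 and 238 at 12 h, and 173 and 225 at 24 h. Both root arrays at 0.5 h and both at 1 h lay above every later root array, and the arrays of 6, 12 and 24 h overlapped one another. The root means in order of time were 516 ± 34.4, 783 ± 189.8, 366 ± 67.1, 218 ± 40.5, 193 ± 64.0 and 199 ± 36.5 (SD, n = 2 each).

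**Figure D1:**
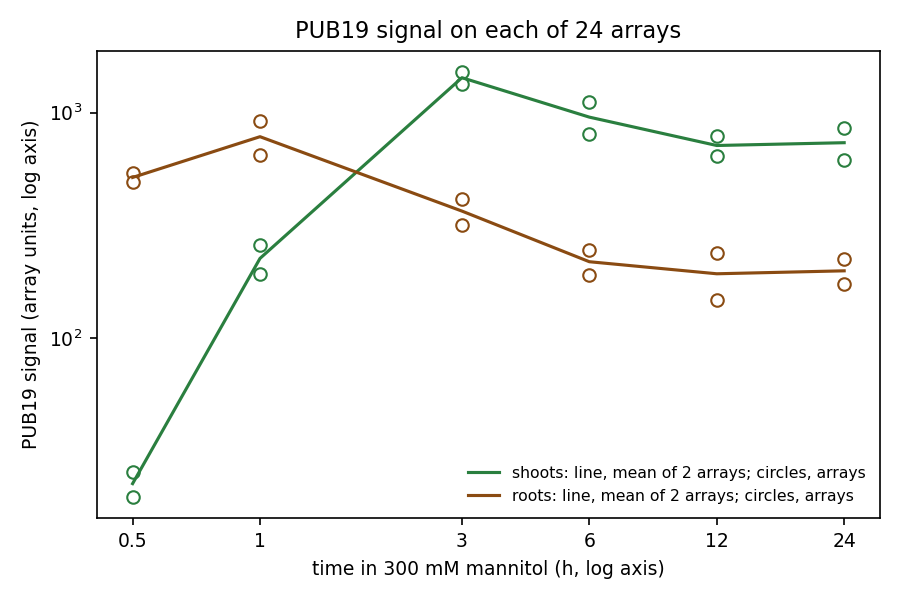
PUB19 signal in array units on a log axis against hours in 300 mM mannitol, also on a log axis; circles are single arrays and lines join the means of 2 arrays in shoots (green) and roots (brown). Shoots start at 22.6 and reach 1430.2 at 3 h, roots start at 516 and end at 199, and the lines cross between 1 h and 3 h.

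In order of the mean, shoots at 3 h stood first, followed by shoots at 6 h, roots at 1 h, shoots at 24 h and shoots at 12 h. Roots at 0.5 h and at 3 h came next, then shoots at 1 h, roots at 6, 24 and 12 h, and last shoots at 0.5 h. Single arrays overlapped between all neighbours from shoots at 6 h down to shoots at 12 h, and between all neighbours from shoots at 1 h down to roots at 12 h. No overlap was seen where shoots at 3 h stood above shoots at 6 h, on either side of roots at 0.5 h, between roots at 3 h and shoots at 1 h, or where shoots at 0.5 h stood below roots at 12 h. Arrays of whole tissues do not separate fewer cells of a type from less RNA per cell, and this holds for each level given here.

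Against shoots at 0.5 h, the mean shoot signal was 9.98-fold higher at 1 h and 63.2-fold higher at 3 h, and the ratios at 6, 12 and 24 h were 42.3, 31.6 and 32.5. Only 1 of the 2 arrays at 0.5 h lay above the 40th percentile. With that percentile in place of lower signals, bounds were taken as ratios of geometric means, which average on the log scale. By these bounds the signal was at least 9.18-fold higher at 1 h, at least 58.7-fold at 3 h, and at least 38.8-, 29.2- and 29.8-fold at the later times. On the log2 scale after a pseudocount of 7.72 was added, which pulls in the fold of weak signals, these differences were 2.94, 5.57, 4.98, 4.57 and 4.60 in order of time, each with an SE of 0.25. Among the 16814 probe sets tested 16.9% were called higher at 3 h and 25.4% at 24 h, where a call is a Benjamini-Hochberg adjusted p under 0.05 in limma, a linear model fitted to all probe sets at once. These values show the choice of the gene and carry no test.

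The shoot arrays outside that choice were compared with each other. From 1 h to 6 h PUB19 rose by 2.04 ± 0.25 on the log2 scale (SE, 95% interval 1.52 to 2.56, adjusted p = 3.11e-06), a ratio of mean signals of 4.23. The rise from 1 h was 1.64 (1.12 to 2.16, adjusted p = 2.83e-05) at 12 h and 1.67 (1.14 to 2.19, adjusted p = 1.81e-05) at 24 h. Higher calls made up 20.6% of all tested probe sets from 1 h to 6 h, 23.8% to 12 h and 24.4% to 24 h.

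After 6 h no further shoot change passed the test. The 12 h value was 0.40 below the 6 h value on the log2 scale (interval -0.92 to 0.12, adjusted p = 0.336, with 12.5% of probe sets called in either direction). The 24 h value was 0.37 below it (-0.90 to 0.15, adjusted p = 0.28, background 30.2%). From 12 h to 24 h the difference was 0.03 (-0.49 to 0.55, adjusted p = 0.961, background 15.3%). Against 6 h, the intervals leave room for a fall of up to 0.92 and a rise of up to 0.15. From 12 h to 24 h they leave room for a fall of up to 0.49 and a rise of up to 0.55.

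In roots PUB19 fell. It was lower than at 0.5 h by 1.22 at 6 h (95% interval -1.75 to -0.70, adjusted p = 0.00123), with 19.5% of all tested probe sets called lower. It fell by 1.42 at 12 h (-1.94 to -0.90, adjusted p = 3e-04, 21.9% called lower) and by 1.35 at 24 h (-1.87 to -0.83, adjusted p = 0.000366, 23.8% called lower). The mean root signal at 24 h was 0.385 of that at 0.5 h, and both 24 h arrays lay below both 0.5 h arrays. Counted from the most negative change at 24 h, PUB19 held place 547 of 16814.

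The first hours in roots were less clear. Both 1 h arrays lay above both 0.5 h arrays, a difference of 0.57 on the log2 scale (0.05 to 1.1), which did not pass (adjusted p = 0.348, and 0.737% of probe sets were called in either direction). At 3 h the value was 0.50 below 0.5 h (-1.02 to 0.02, adjusted p = 0.156, background 24.1%). From 1 h to 3 h PUB19 fell by 1.07 (-1.59 to -0.55, adjusted p = 0.0109, with 5.15% called lower). That fall did not pass when roots 1 h replicate 2, the brighter array, was left out (-0.82, adjusted p = 0.122), nor without roots 3 h replicate 2 (-0.89, adjusted p = 0.0988).

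The root decline ran on between 3 h and 24 h, by 0.86 (-1.38 to -0.33, adjusted p = 0.0235, 9.67% called lower). Leaving out roots 3 h replicate 1 ended this call (-0.67, adjusted p = 0.154), and so did leaving out roots 24 h replicate 1 (-0.67, adjusted p = 0.179). Stepwise, the 6 h value was 0.73 below 3 h (-1.25 to -0.20) and did not pass (adjusted p = 0.254, where 0.208% of probe sets were called at all). From 6 h to 12 h the difference was -0.20 (adjusted p = 0.921, background 0.0297%) and from 12 h to 24 h 0.07 (adjusted p = 0.955, background 1.55%). Roots had thus no step after 3 h that passed between neighbouring times, and the intervals of the last pair of steps ran from -0.72 to 0.59.

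Set against each other at the same time, the tissues changed places. At 0.5 h the root mean was 22.8-fold the shoot mean, or at least 21.2-fold with the 40th percentile as the floor, a difference of 4.11 on the log2 scale that carries no test. At 1 h roots were still higher, by 1.75 (1.23 to 2.27, adjusted p = 7.27e-06), a ratio of 3.47; 40.8% of all tested probe sets were called higher in roots there. At 3 h the root mean was 0.256 of the shoot mean, again without a test.

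From 6 h on PUB19 was lower in roots than in shoots. The difference was -2.09 at 6 h (-2.61 to -1.56, adjusted p = 1.02e-06), -1.88 at 12 h (-2.40 to -1.36, adjusted p = 3.99e-06) and -1.84 at 24 h (-2.36 to -1.32, adjusted p = 4.85e-06). Shoots thus held 4.38, 3.71 and 3.70 times the root signal at these times. Lower calls made up 23.1%, 23.4% and 22.2% of all probe sets, so a tissue difference of either sign was common on these arrays. In each of these tested pairs no root array overlapped a shoot array.

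The change of places was tested as the root change minus the shoot change since 1 h. It was -3.84 ± 0.35 at 6 h (SE, 95% interval -4.58 to -3.10, adjusted p = 1.1e-06), -3.63 at 12 h (-4.37 to -2.89, adjusted p = 9.54e-07) and -3.59 at 24 h (-4.33 to -2.85, adjusted p = 9.38e-07). Probe sets called in this direction were 11.7%, 15.6% and 14.9% of those tested. Counted from the most negative value, PUB19 stood at places 44, 77 and 97 in turn. In all, 15 of 23 tested comparisons of PUB19 passed. Many of them share arrays, so they are not separate pieces of evidence.

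**Figure D2:**
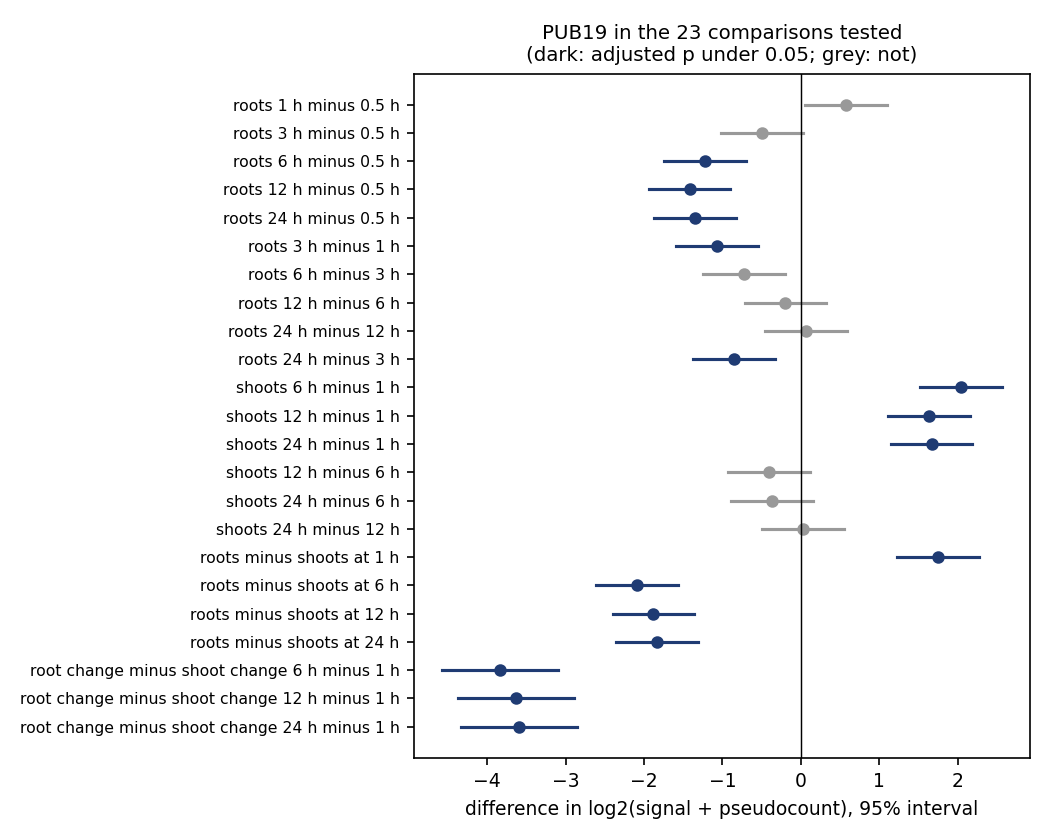
The 23 tested differences of PUB19 in log2(signal + pseudocount), with 95% intervals from limma as bars; dark points have an adjusted p under 0.05 and grey points do not. Dark points lie on both sides of 0, from -3.84 for the root minus shoot change at 6 h to 2.04 for shoots at 6 h against 1 h.

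Marker and quality values moved beside these results. In roots the summed signal of the 6 green tissue markers went from 341 at 0.5 h to 904 at 24 h and all 6 were called higher, as were 17% of all probe sets (median 0.99, against -0.08), while PUB19 fell there. The root marker EXPA7 had root means of 41.6, 48.5, 8.69, 12.6, 3.91 and 26.0 in order of time. It was called lower than at 0.5 h at 3 h (adjusted p = 0.0251, with 13.7% of probe sets called lower). At 12 h it was again called lower (adjusted p = 0.00242, with 21.9% called lower). Its means at 3 h and 12 h lay below the 40th percentile of those arrays (25.9 to 26.9), so both calls rest on weak values. PUB19 was also below its 0.5 h level at both times, though its 3 h difference did not pass (adjusted p = 0.156). PYK10 did not pass in roots at any time against 0.5 h (differences from -0.18 to 0.23). In shoots the same sum was 27426 at first, 28192 after 3 h and 15171 after 24 h, and 5 of 6 markers were called lower at the end, where 33.2% of all probe sets were. Root markers in shoots summed to 960.4 at 0.5 h and 376 at 3 h, so their sum was lower where PUB19 was higher. The ratio of the 3' to the 5' actin control, a sign of RNA quality, was 6.77 in the first shoot group, 10.3 after 3 h and 16.7 after 24 h, whereas PUB19 was highest at 3 h; in roots it lay between 11.1 and 12.3. The same ratio of the ubiquitin control went the other way in shoots, from 3.04 through 2.60 to 1.79, and that of GAPDH was 1.35, 1.43 and 1.57. PUB18 and PUB19 are known to act in stomatal closure, a response of guard cells. The only guard cell marker with a named probe set, FMA, read between 32.0 and 68.7 in shoots and between 8.23 and 21.0 in roots; its change from 0.5 h to 24 h passed in neither tissue. None of the 12 root arrays had FMA above the 40th percentile; among these weak values the root difference from 0.5 h to 6 h was called (-0.59, adjusted p = 0.033). The part of tissue mix and RNA quality in the PUB19 course was not tested.

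Other plant U-box genes give the family context. Of 38 listed, 8 had a probe set with a matching gene name: PUB19, PUB15 (1.94 to 12.2 in array units, too weak to test), PUB22, PUB23, PUB24, PUB25, PUB26 and PUB43. Like the other lists below, this one was drawn up with results of these data known. Of the 6 tested besides PUB19, 2 rose and 3 fell in shoots from 0.5 h to 24 h, and 1 was called higher and 2 lower in roots. Their median difference was -0.34 in shoots, against -0.12 for all probe sets, and -0.27 in roots, against -0.08. Calls in either direction made up 58.6% of all probe sets in shoots and 40.8% in roots.

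PUB22 and PUB23 are close relatives of PUB19 that also act in drought responses and in immunity. PUB22 read 42.5 and 66.7 in shoots at 0.5 h and 1.88 and 8.20 at 24 h, so that it was at least 2.82-fold lower with the 40th percentile of the later arrays (17.6 and 20.3) as the floor (adjusted p = 1.38e-05). In roots its arrays overlapped, at 118 and 80.9 at 0.5 h against 98.8 and 109 at 24 h, with a difference of 0.08 (adjusted p = 0.877). PUB23 read 38.7 and 93.1 in shoots at 0.5 h, far apart from each other, and 3.39 and 18.4 at 12 h. It was thus at least 2.82-fold lower at 12 h by the same floor, a bound on the group average and not on each array. This fall was called (adjusted p = 0.000312, with 27.4% of probe sets called lower). At 24 h PUB23 was lower by 1.18 in shoots (adjusted p = 0.0146), and its root difference was -0.62 (adjusted p = 0.216). Both were higher in roots than in shoots at 24 h, PUB22 at least 5.48-fold (adjusted p = 2.63e-07) and PUB23 by 2.1 on the log2 scale (adjusted p = 0.000151), where PUB19 was lower in roots; 39.5% of probe sets were called higher in roots.

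PUB24, which acts with PUB22 and PUB23 in damping immune responses, rose in shoots from 0.5 h to 1 h by 1.02 ± 0.29 (adjusted p = 0.0329). There 4.26% of probe sets were called higher. Its arrays read 30.8 and 85.4 at 0.5 h, far apart from each other, and 118 and 110 at 1 h. The shoot mean of PUB24 went from 58.1 to 114, and was 66.3 at 6 h and 57.6 at 12 h. In roots it fell by 0.84 at 24 h (adjusted p = 0.0281). PUB25 and PUB26, known for roles in cold and in immunity, went separate ways in shoots at 24 h. PUB25 rose by 0.52 ± 0.18 (adjusted p = 0.0184) and PUB26 fell by 1.11 ± 0.23 (adjusted p = 0.000555). In roots none of the 12 arrays had PUB26 above the 40th percentile, so its root call (24.8 and 23.6 at 0.5 h, 14.3 and 8.0 at 24 h) is one between weak values and no size is given.

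PUB43 rose in both tissues. Its shoot arrays read 37.4 and 39.4 at 0.5 h and 146 and 109 at 24 h, a rise of 1.54 ± 0.21 (adjusted p = 7.77e-06). Its root arrays read 89.3 and 50.1 at 0.5 h and 149.9 and 132 at 24 h, a rise of 0.98 ± 0.21 (adjusted p = 0.00141). For the root change minus the shoot change from 1 h to 24 h, 0 of these 6 genes passed in limma, where 34.2% of all probe sets did, and for 2, PUB43 and PUB22, the unadjusted 95% interval left out 0. The PUB43 value was -0.66 (interval -1.29 to -0.02, adjusted p = 0.103). At 12 h PUB25 passed with a positive value (0.88 ± 0.25, adjusted p = 0.0135), where the PUB19 value was negative; positive calls made up 16% of probe sets there. Calls of PUB22 at 6 h and PUB23 at 12 h in this comparison rest on shoot values below the 40th percentile and are given without a size.

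**Figure D3:**
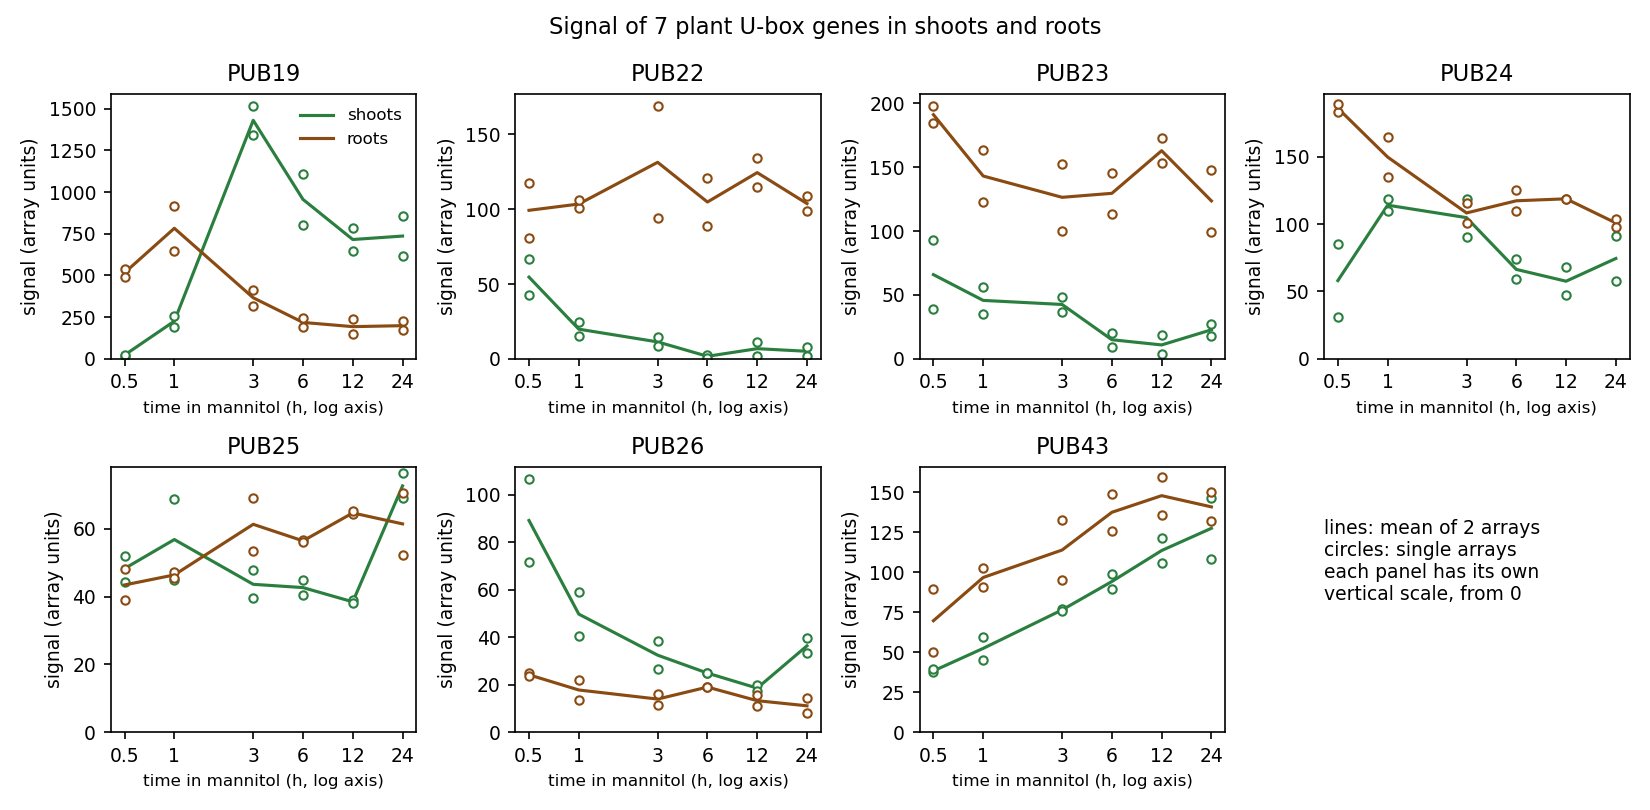
Signal in array units of PUB19 and of the 6 other tested plant U-box genes against hours in 300 mM mannitol (log axis), each panel with its own vertical scale from 0; circles are arrays and lines join means of 2 arrays in shoots (green) and roots (brown). The shoot line of PUB19 climbs to 1430.2 at 3 h, that of PUB22 drops from 54.6 at 0.5 h to 5.04 at 24 h, and that of PUB43 climbs from 38.4 to 127.

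Other parts of the ubiquitin pathway could be followed in few genes. Of 10 listed RING ligases with roles in abscisic acid or drought responses, XERICO, whose overexpression is known to raise abscisic acid levels, was the 1 with a named probe set. Its shoot arrays read 123 and 149.6 at 0.5 h, 107 and 71.8 at 1 h, 391 and 306 at 3 h, 704 and 716 at 6 h, 797 and 661 at 12 h, and 489 and 416 at 24 h. The shoot arrays from 3 h on lay above both 0.5 h arrays, and the highest was at 12 h, not at 3 h as for PUB19. XERICO rose in shoots by 1.68 ± 0.18 from 0.5 h to 24 h (adjusted p = 5.14e-07), and its root means stayed between 209 and 249.9 with a difference of -0.03 (adjusted p = 0.921). The root change minus the shoot change from 1 h to 24 h was -2.31 ± 0.26 (adjusted p = 3.69e-06), the same sign as for PUB19.

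Among ubiquitin, E1 and E2 genes, 3 of 18 could be tested, all E2 conjugating enzymes. UBC30 rose in shoots by 2.25 ± 0.14 from 0.5 h to 24 h (adjusted p = 8.26e-10), with arrays at 158 and 178 against 904 and 757, and in roots by 0.38 (adjusted p = 0.0404). UBC28 (0.29 in shoots, 0.35 in roots) and UBC29 (0.34 and 0.27) did not pass in either tissue at 24 h. Of 5 reported targets of PUB18, PUB19, PUB22 or PUB23, 1 was measured under its name, RPN12a, a subunit of the regulatory particle of the proteasome and a reported target of PUB22 and PUB23. RPN12a rose in shoots by 0.59 ± 0.11 (322 and 321 at 0.5 h, 535 and 446 at 24 h, adjusted p = 0.000219). In roots it fell by 0.39 ± 0.11 (486 and 513 against 400.1 and 362, adjusted p = 0.0115), and the root change minus the shoot change from 1 h to 24 h was -0.62 ± 0.16 (adjusted p = 0.00591).

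Genes that abscisic acid and dehydration switch on were represented by 5 of 14 listed: COR47 and LTI30, both dehydrins, COR15A and COR15B, which protect chloroplast membranes in the cold, and LEA4-5, a late embryogenesis abundant protein. All 5 were called higher in shoots at 3 h and at 24 h, as were 16.9% and 25.4% of all probe sets. Their median was 5.19 and 6.45, against -0.06 and -0.12 for all; LEA4-5 lay below the 40th percentile on both shoot arrays at 0.5 h and was at least 128-fold higher at 24 h. In roots 3 were called higher at 3 h, where 10.3% of probe sets were, and 2 at 24 h, where 17% were, and none was called lower. LEA4-5 rose in roots by 2.53 ± 0.37 at 24 h (adjusted p = 5.62e-05), where PUB19 fell by 1.35. The shoot mean of COR15B went from 24.6 at 0.5 h through 2344 at 6 h to 97.2 at the end, and that of LEA4-5 from 3.12 through 1001 to 3084, so these shoot courses ended far apart from each other. For the root change minus the shoot change from 1 h to 24 h, 3 of 5 were called lower (COR47, LEA4-5 and LTI30), as were 14.9% of all probe sets. Of the listed genes of abscisic acid synthesis and breakdown (11), its receptors (10), its phosphatases of the PP2C class (9) and its SnRK2 kinases and ABF factors (8), none had a named probe set, and these are not analysed here.

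Likeness to PUB19 was measured as Pearson's r over the 12 group means of log2 values, for 9205 other probe sets that name 1 gene. All values of r use the same arrays as PUB19. Those over 12 means or over shoot means include shoots at 0.5 h and 3 h, by which the gene was chosen. Each r is therefore a description. AT1G78070 came first with r = 0.972, followed by AT5G63130 (0.914), AT1G30260 (0.890), AT1G77280 (0.886), AT5G14500 (0.880), AT5G43150 (0.878), AT1G68490 (0.869) and AT5G07910 (0.864). Only the first 2 were over 0.9. Their names in the files are locus codes.

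AT1G78070 kept its likeness within each tissue, at r = 0.990 over the 6 shoot means and 0.993 over the 6 root means. Its shoot arrays read 48.5 and 53.0 at 0.5 h, 176 and 258 at 1 h, 554 and 405 at 3 h, 384 and 346 at 6 h, 311 and 284 at 12 h, and 349.7 and 254 at 24 h. Its root arrays read 314 and 342 at 0.5 h, 366 and 607 at 1 h, 301 and 249.8 at 3 h, 168 and 213 at 6 h, 171 and 193 at 12 h, and 149.8 and 181 at 24 h. Like PUB19 it had its highest shoot mean at 3 h and its highest root mean at 1 h. Its shoot difference from 1 h to 24 h was 0.47 and did not pass in limma (adjusted p = 0.0876), against 1.67 for PUB19. Its root difference from 0.5 h to 24 h was -0.96 (adjusted p = 0.00273), against -1.35 for PUB19.

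AT5G63130 followed PUB19 more closely in shoots (r = 0.971) than in roots (0.712). Its shoot means were 29.9, 59.3, 192, 126, 148.0 and 152 from 0.5 h to 24 h, and its root means 178, 129, 99.2, 93.7, 106 and 68.2. Its root mean was thus highest at 0.5 h, not at 1 h. AT1G30260, the third gene, had r = 0.947 in shoots and 0.445 in roots, where its means stayed between 136 and 168.

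**Figure D4:**
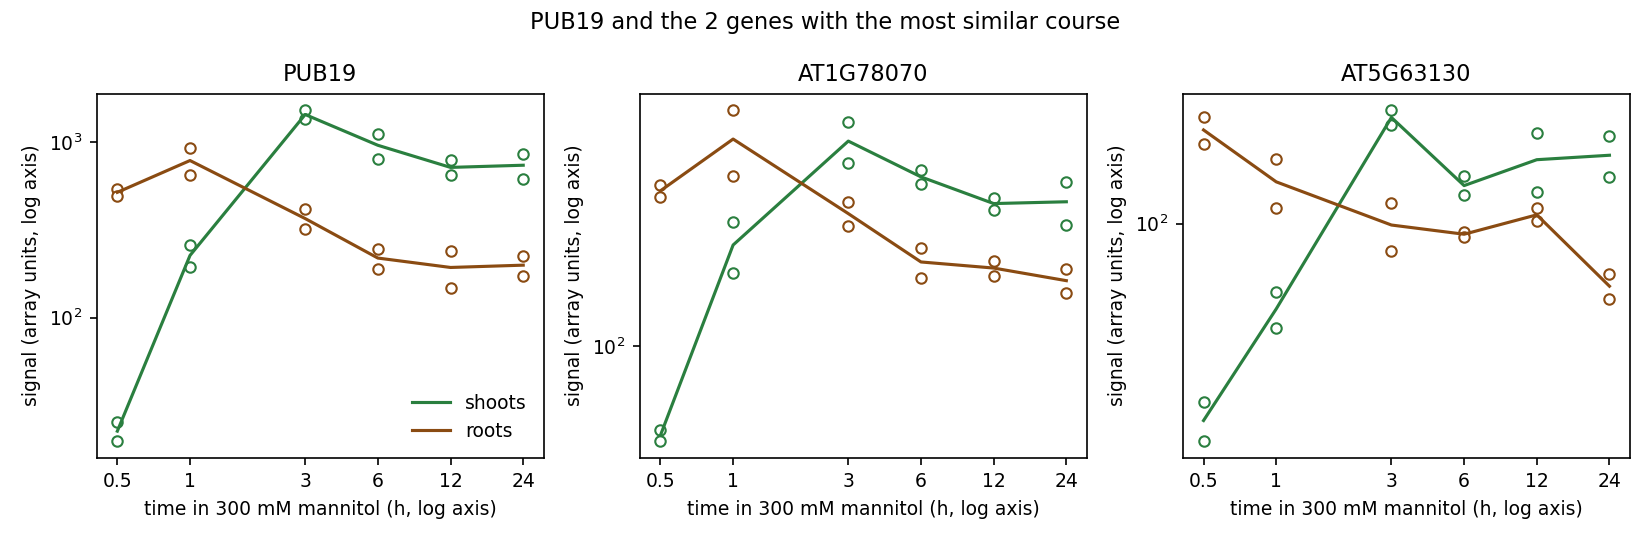
Signal in array units on log axes of PUB19 and of the 2 genes with the most similar course over 12 group means, AT1G78070 (r = 0.972) and AT5G63130 (r = 0.914), against hours in 300 mM mannitol; circles are arrays and lines join means of 2 arrays. In each panel the shoot line (green) starts lowest and is highest at 3 h, and the root line (brown) ends below the shoot line.

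Within 1 tissue high values of r were common: 146 probe sets passed 0.9 over the shoot means and 720 over the root means. Over shoots the leading genes were AT2G21560 (0.993), AT4G39170 (0.992), AT1G78070, AT3G12260 (0.988) and ATU2AF65A (0.988). Over roots they were AT5G65860 (0.996), AT1G78070, AT4G28230 (0.991), AT3G04640 (0.990) and AT4G32460 (0.990). AT1G78070 was the 1 gene in both of these lists, and the root means of AT2G21560 ran against those of PUB19 (r = -0.859), as did the shoot means of AT4G32460 (r = -0.817). A high r does not need a large change. The shoot means of AT4G39170 stayed between 97.8 and 126. Those of AT4G28230 in roots stayed between 25.1 and 31.1, and its root difference from 0.5 h to 24 h did not pass in limma (-0.16, adjusted p = 0.596).

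The courses most opposed to PUB19 over all 12 means were those of AT1G21830 (r = -0.904), AT4G17080 (-0.903) and AT3G06660 (-0.863). AT1G21830 had its highest mean, 189.5, in shoots at 0.5 h, where PUB19 was lowest, and its lowest, 42.7, in shoots at 3 h, where PUB19 was highest.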

How the data were processed

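Total RNA labelled with biotin was hybridised to 24 arrays, per the labels. The values are the signal intensity per probe set as the authors deposited it, made with MAS5 per the submitters' processing notes; of its version and scaling target nothing is given in these sources, and the mean of each array trimmed by 2% at each end was between 100.007 and 100.01. Of 22810 probe sets, 64 controls were left out. Log2 was taken of each deposited intensity plus 7.72, the 20th percentile of all signals, so the log2 change of weak signals is understated. A probe set was tested if it exceeded the 40th percentile of its array on at least 2 arrays (16814; 5932 were not tested).

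Limma 3.58.1 in R 4.3.3 was fitted to 12 group means with a variance trend, on 12 residual and 5.28 prior degrees of freedom, and checked on simulated data. The Benjamini-Hochberg adjustment ran over the 16814 probe sets within a comparison, and an adjusted p under 0.05 was a call. The array annotation named 1 gene for 13513 probe sets, several for 503 and none for 8730; 13436 matched the RefSeq gene table of TAIR10.1, whose coordinates are not used here. No replicate pair was identical (0 of 12).

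The gene, the gene lists, the tests and the alternatives were chosen with earlier results of these data known. Named were PUB19, members of the lists, and by Pearson's r with PUB19 the 8 highest over 12 means, the 5 highest over each tissue's 6 means and the 3 lowest. Alternatives were another pseudocount, scaling, filter, variance model, set of arrays in the fit, a replicate block, and leaving out each array. Bounds on folds ("at least") put the 40th percentile of an array in place of a lower signal in the weaker group, a choice made after seeing the data. They are ratios of geometric means, unlike the other ratios of mean signals.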

Additional observations from a re-analysis of the deposited data

Results flagged for a closer look

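The course of PUB19 differed between the tissues. The root change minus the shoot change, on the log2 scale in limma, was -3.84 from 1 h to 6 h (adjusted p = 1.1e-06), -3.63 from 1 h to 12 h (adjusted p = 9.54e-07) and -3.59 from 1 h to 24 h (adjusted p = 9.38e-07). Compared with the arrays at 0.5 h, every shoot array from 3 h on was higher and every root array from 3 h on was lower. The difference of the changes was -6.07 after 3 h, -6.2 after 6 h, -5.99 after 12 h and -5.95 after 24 h; their size rests on a shoot level near the floor of the arrays at 0.5 h, and these differences were not tested, because the shoot arrays at 0.5 h and 3 h led to the choice of the gene.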

How the results depend on the processing

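Under other pseudocounts, scalings, filters, variance models and sets of arrays, 199 of 200 values of PUB19 kept their direction and their side of the threshold. The other was the shoot difference from 12 h to 24 h, which did not pass, at -0.0426 under quantile normalization. With single arrays left out 95 of 104 values did so; 4 no longer passed and 5 turned sign, the latter all in differences that did not pass. Without replicate arrays in turn, the lone array of a group being taken to vary like the other groups, the root change from 1 h to 3 h ranged from -1.32 to -0.824 (adjusted p up to 0.122) and that from 3 h to 24 h from -1.04 to -0.671 (adjusted p up to 0.179). The shoot difference from 12 h to 24 h ranged from -0.206 to 0.264, and the root differences from -0.528 to 0.134 between 6 h and 12 h and from -0.263 to 0.399 between 12 h and 24 h. Of the 8 genes most like PUB19, 5 stayed under quantile normalization and 4 under median scaling, with AT1G78070 and AT5G63130 in places 1 and 2 under both; the cause was not tested.

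Scaling moved the whole table. With each array set to 1 median, the median of all roots minus shoots at 24 h went from 0.239 to -0.0826 and PUB19 there from -1.84 to -2.21. The share of calls that were higher in roots went at that time from 64% to 43.4%, at 12 h from 60.4% to 47.2% and at 6 h from 62.7% to 49.5%. For roots against 0.5 h it went from 76.6% to 92.6% at 1 h, from 42.9% to 66.3% at 3 h, from 42.4% to 61.6% at 6 h, from 41.8% to 59.2% at 12 h and from 41.7% to 57.7% at 24 h, and for roots from 1 h to 3 h from 48.1% to 59.4%. For shoots at 24 h it went from 42.8% to 56.4% against 1 h, from 43.2% to 57% against 6 h and from 36.5% to 59.2% against 12 h, and for the root minus shoot change from 1 h to 24 h from 56.6% to 43%. Calls from 0.5 h to 1 h in roots rose from 124 to 221 under quantile normalization, and those from 3 h to 6 h went from 35 to 62 there and to 23 under median scaling.

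With the replicate number as a block, PUB19 passed in 15 of 23 comparisons, as without it, and the root change from 0.5 h to 24 h was -1.35 (adjusted p = 0.000519). Same-numbered samples deviated together at r from -0.165 to 0.348 over 66 pairs of groups (median 0.00696), so the numbers were not taken to pair the samples. The shoot level at 0.5 h, near the floor, limits the precision of folds against it, as does the number of arrays.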

Other observations

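A rise in shoots together with a fall in roots, the pattern of PUB19, was called for 165 probe sets. From 1 h to 24 h 4102 probe sets were called higher in shoots, 24.4% of the 16814 tested. From 0.5 h to 24 h 4002 were called lower in roots, or 23.8%. Of the shoot group 4.02% were also in the root group, and 4.12% of the root group were in the shoot group. Both shares were thus below those over all tested probe sets. With a change of at least 2-fold required as well, the counts were 1913, 1262 and 20, or 1.05% and 1.58%. PUB19 was in both groups under both rules.

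The genes next to PUB19 in the RefSeq gene order of TAIR10.1 were also read. AT1G60180, listed there as a transcribed pseudogene, stayed between 0.395 and 8.37 in array units on the 24 arrays and was too weak to test. AT1G60200 has 2 probe sets. The brighter, 264218_at, read between 61.6 and 184 and rose in roots by 0.82 from 0.5 h to 24 h (adjusted p = 0.000297), where PUB19 fell; its shoot difference from 1 h to 24 h was 0.35 (adjusted p = 0.0503). The other, 264267_at, read between 18.7 and 51.1 and passed in neither comparison (0.04 in roots, adjusted p = 0.904, and -0.10 in shoots, adjusted p = 0.706).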
